A study of Mus musculus with 8 samples.

Results

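The Notch receptors Notch1, Notch2 and Notch3, the ligands Jag1, Jag2 and Dll1, the DNA-binding factor Rbpj and the target genes Hes1, Hey1 and Heyl were followed in mouse skin that regrew hair with or without alpinetin. They were taken by gene symbol from a table of 18770 genes, and all 10 were found in it. The samples were dermis with hair follicles from the back skin of wildtype male C57BL/6 mice, 7 to 8 weeks of age by the labels, collected on day 4 (D4) after depilation, with the interfollicular epidermis taken off. The AP group (4 libraries) had received alpinetin, a plant flavonoid, at 3 mg/ml in 20 µl of 65% ethanol on the skin once a day from 24 h after depilation, and the vehicle control group (VC, 4 libraries) the 65% ethanol alone. The comparison asks which genes differ between treated and control skin at the start of hair regrowth.

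Notch receptors span the cell membrane and are bound by Jagged and Delta-like ligands on a neighbouring cell. Binding lets ADAM proteases and then γ-secretase cut the receptor, and the freed intracellular part joins Rbpj and Mastermind-like coactivators on DNA, where it switches on genes such as those of the Hes and Hey families. In skin the pathway is known for its part in the differentiation of suprabasal keratinocytes and of the inner layers of the hair follicle, and in blood vessels Notch3 is typical of mural cells, Notch4 and Dll4 of endothelium.

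Levels are given as normalized counts, which are read counts divided by 1 size factor per library. The VC libraries held 7264151, 6833615, 6479827 and 6454563 reads on the listed genes, and the AP libraries 8507783, 10853773, 11190113 and 8863517. Mitochondrially encoded genes took 42.1% to 54.3% of the reads in the VC libraries and 5.32% to 11.1% in the AP libraries. Reads from other genes were therefore fewer in every VC library (3080758 to 3762217) than in any AP library (7561598 to 10594787). Each group's libraries carry numbers (VC.1, AP.1 and so on), values are given in that order, and no library could be tied to a certain mouse. The 10 genes had between 40 reads (Hey1 in VC.4) and 2718 reads (Notch1 in AP.2) per library, all above the floor of 3 reads. Fold changes are AP over VC on the log2(normalized count + 1) scale, with the standard error (SE) and adjusted p of limma, and a gene counted as called when its p, adjusted over the 15964 genes tested, was under 0.05.

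Of the 10 genes, 2 were called higher in AP (Notch2 and Notch3), beside 6.33% of all genes tested, and 0 were called lower, beside 4.0%. With the thresholds of the study's methods (fold change over 1.5, unadjusted p under 0.01) limma again gave 2 higher, beside 8.26% of all genes, and 0 lower, beside 5.32%. With the same thresholds DESeq2, the tool of the methods (a test chosen after seeing the data), gave 3 higher (Notch1, Notch2 and Notch3), beside 9.83%, and 1 lower (Hey1), beside 7.35%. That run gave more genes in both directions than the paper reported, so its calls are not those of the study. At an unadjusted p under 0.05, limma gave 4 of the genes higher (Notch1, Notch2, Notch3 and Jag2), beside 17.0% of all genes, and 3 lower (Hes1, Hey1 and Heyl), beside 13.3%. At an adjusted p under 0.05, DESeq2 on the reads recovered from the normalized counts called 3 higher, beside 10.5% of all genes, and 2 lower (Hes1 and Hey1), beside 8.53%. With edgeR 2 were higher, beside 6.28%, and 0 lower, beside 4.46%, and with limma-voom 2 were higher, beside 4.48%, and 0 lower, beside 4.53%. In 2 of the genes every AP library lay above every VC library, beside 10.3% of all genes, and in 2 every AP library lay below, beside 8.91%. The median log2 fold change was 0.45 over the 10 genes and 0.06 over all genes tested. In whole tissue, fewer cells of a type and less RNA per cell cannot be told apart, which holds for every level below.

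**Figure D1:**
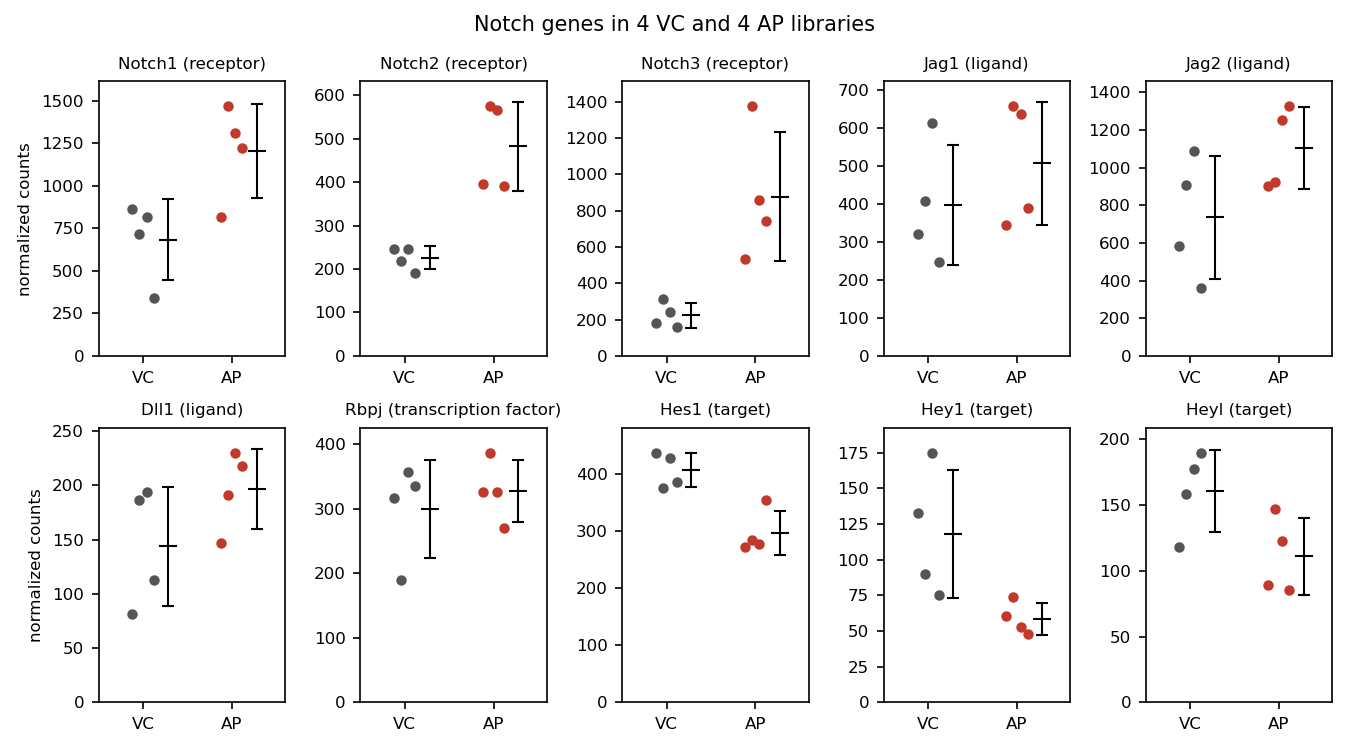
Normalized counts of the 10 Notch genes in 4 VC (grey) and 4 AP (red) libraries, 1 point per library, with the mean and SD of each group as a black bar; each axis starts at 0. Notch2 and Notch3 were higher in every AP library than in any VC library; Hes1 and Hey1 were lower at this scaling, and Hes1 and Heyl turned with scaling to total counts (0.41 and 0.32 on the log2 scale).

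Notch3, a receptor, had the largest fold change among the 10 genes. It stood at 180.1, 313, 243 and 161 normalized counts in VC and at 535, 1375, 858 and 745 in AP. The groups did not overlap, and AP.2 was far above the other AP libraries. Its mean was 3.91 times as high in AP, with a log2 fold change of 1.93 (SE 0.29, limma adjusted p = 0.00684). Without AP.2 the log2 fold change was 1.68, and limma's adjusted p was 0.0116. Notch3 was called in all 19 alternative fits, with log2 fold changes from 1.502 to 2.80 and adjusted p up to 0.0267.

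Notch2, a receptor of the same family, stood at 246, 219, 247 and 191 normalized counts in VC, against 396, 574, 567 and 391.95 in AP. The VC values were close together, and the AP values fell into a lower pair (AP.1 and AP.4) and a higher pair (AP.2 and AP.3), all above VC. The log2 fold change was 1.08 (SE 0.19, limma adjusted p = 0.0104). Notch2 was called in 18 of 19 alternative fits; with the trend on transcript length removed its log2 fold change was 0.56 with a limma adjusted p of 0.0523, just past the threshold.

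Notch1, the receptor best known from epidermal differentiation, stood at 860.4, 714, 818 and 343 normalized counts in VC and at 816, 1466, 1308 and 1219 in AP. The groups overlapped through AP.1, which lay among the VC values, and VC.4 was low. Its log2 fold change of 0.87 (SE 0.29, 95% interval 0.24 to 1.49) did not pass, with a limma adjusted p of 0.0714. Without AP.1 it was 1.04 (limma adjusted p = 0.0411), and without VC.4 it was 0.56 (limma adjusted p = 0.107). DESeq2 gave an adjusted p of 0.0420 and edgeR one of 0.0791, and over all 19 alternative fits it ran from 0.00184, with scaling to the total of all reads, to 0.353.

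Summed over the 3 receptors, the level was 1286, 1246, 1308 and 696 normalized counts in VC, against 1747, 3415, 2733 and 2355 in AP. The sums did not overlap, and the lowest VC sum came from VC.4 and the highest AP sum from AP.2. Divided by the length of the longest transcript, Notch3 made up 23.5% ± 5.62 (SD, n = 4) of the 3 receptors in VC and 38.0% ± 4.75 in AP. Its share was 16.5%, 28.9%, 21.6% and 27.0% in the VC libraries and 35.1%, 45.1%, 35.8% and 35.9% in the AP libraries. Every AP share lay above every VC share, and the shares were not tested. Notch1 made up 58.0% ± 7.71 in VC and 45.4% ± 3.74 in AP, and Notch2 18.4% ± 4.07 and 16.7% ± 2.71, with overlap in both.

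Ratios of 2 genes within a library depend on its size factor only through the pseudocount of 1 added to each normalized count, and 5 of them were compared. The log2 ratio of Notch1 over Notch3 was 2.25, 1.19, 1.75 and 1.08 in VC, against 0.61, 0.092, 0.61 and 0.71 in AP. It was lower in every AP library, by a mean log2 difference of -1.06 (two-sided exact permutation p = 0.0286, the smallest that 4 against 4 allows; 0.143 adjusted over the 5 ratios). The log2 ratio of Notch1 over Notch2 differed by -0.21 (exact permutation p = 0.429, adjusted 0.429), with overlapping groups; without VC.4 it was -0.44 (exact permutation, adjusted p = 0.143) and without VC.1 -0.11, and the adjusted p with 1 library left out ran from 0.143 to 0.714. No ratio passed an adjusted p under 0.05, and the lowest p of the exact permutation test adjusts to 0.143 when it is reached by 1 ratio of 5.

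The sums of mural cell and endothelial genes were higher in every AP library, as was Notch3, and did not pass the test. Limma called 3 of 10 mural cell genes higher (Kcnj8, Acta2 and Myh11), beside 6.33% of all genes. All 10 had a log2 fold change above 0, and none had a library at 0. Their summed level was 1906, 1753, 2803 and 3034 normalized counts in VC and 5190.1, 7927, 3212 and 4035 in AP, with Acta2, a smooth muscle actin, as the most abundant over all libraries and Tagln in VC. All AP sums were above all VC sums (2.14 times in the mean; two-sided exact permutation p = 0.0286, 0.0857 adjusted over 12 marker lists), and the mean of their log2 values gave an exact permutation p of 0.0571 (adjusted 0.114). Without AP.2, the highest library, the sum was 1.75 times that in VC, still with no overlap. The list holds smooth muscle genes (Acta2, Myh11, Tagln and Cnn1). Smooth muscle of vessels was not told apart from other smooth muscle of skin. The part of mural cells in the Notch3 difference was not tested.

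Keratinocyte genes differed too. Of 12 suprabasal keratinocyte genes, 10 were called higher by limma, beside 6.33% of all genes, and all 12 had log2 fold changes above 0. Their summed level was 6219, 13063, 9002 and 5904 normalized counts in VC and 44145, 42096, 123475 and 173609 in AP, with Krt10 most abundant and Krt2 at 0 in VC.4. The AP sums were above the VC sums (11.2 times in the mean; two-sided exact permutation p = 0.0286, adjusted 0.0857). By the methods, the interfollicular epidermal keratinocytes were taken off before RNA was extracted. The part of keratinocytes in the receptor differences was not tested.

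Antisense and overlapping genes share sequence with the receptors. Gm17276, an antisense gene looked up by its position after the values were seen, overlaps 488 exonic bases of Notch3 and stood at 0, 19.2, 21.8 and 11.3 normalized counts in VC and at 45.0, 149, 86.2 and 55.8 in AP. It was called higher (log2 fold change 3.14, SE 0.88, limma adjusted p = 0.0440) and, like Notch3, was highest in AP.2. Its VC.1 value came from 0 reads, so the fitted value depends on the pseudocount. Whether reads were counted by strand is not given in the sources used here, so reads of Notch3 and Gm17276 cannot be told apart in the overlap. Notch1 overlaps the antisense genes 0610009E02Rik (1068 exonic bases) and Gm13568 (414), Notch2 overlaps Gm42820 on the same strand (541) and Dll1 overlaps the antisense A930024N18Rik (867); these genes were not analysed here.

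Among the ligands, Jag2 stood at 582, 909, 1089.6 and 362 normalized counts in VC and at 904, 926, 1255 and 1325 in AP. VC.2 and VC.3 reached into the AP range, while VC.1 and VC.4 were below it. Its log2 fold change of 0.68 (SE 0.30, 95% interval 0.02 to 1.35) did not pass, with a limma adjusted p of 0.154. Jag1, the other Jagged ligand, stood at 320.2, 406, 612 and 246 in VC and at 345, 656, 635 and 389.8 in AP. VC.2 and VC.3 lay within the AP range (log2 fold change 0.38, SE 0.29, limma adjusted p = 0.413). Dll1, a Delta-like ligand, stood at 81.9, 186, 194 and 113 in VC and at 147, 191, 229.7 and 217 in AP. Its groups overlapped as well (0.51, SE 0.29, limma adjusted p = 0.253). Single libraries moved these values: without VC.4 the log2 fold change of Jag1 was 0.18 and that of Jag2 0.38, without VC.3 that of Jag1 was 0.61, and without VC.1 that of Dll1 was 0.28. With the length trend removed that of Jag1 was 0.09 (limma adjusted p = 0.863), that of Jag2 0.44 (0.353) and that of Dll1 0.43 (0.351).

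The 3 ligands summed to 984, 1501, 1895 and 720.0 normalized counts in VC and to 1395, 1773, 2119.5 and 1932 in AP. Within each group the sums spread widely, and VC.2 and VC.3 reached the AP range. The log2 ratio of Jag2 over Jag1 differed by 0.31 between the groups (two-sided exact permutation p = 0.343, adjusted 0.429). It was 0.86, 1.16, 0.83 and 0.56 in VC and 1.39, 0.50, 0.98 and 1.76 in AP, so the AP libraries differed more among themselves than the groups did. With 1 library left out the difference ran from 0.10 (without AP.4) to 0.53 (without AP.2).

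Rbpj, the factor through which Notch signals reach DNA, stood at 317, 189, 358 and 336 normalized counts in VC and at 326, 387, 326 and 269.6 in AP. The lowest value of all was VC.2, and the groups overlapped. The log2 fold change was 0.16 (SE 0.22, 95% interval -0.32 to 0.63, limma adjusted p = 0.664). The sign turned to -0.05 without VC.2 and to -0.12 with the length trend removed.

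Hes1, a repressor of the bHLH family and the most widely used target of the pathway, stood at 437, 375, 427 and 386 normalized counts in VC and at 273, 284, 277 and 354 in AP. Every AP value was below every VC value, and AP.4 was close to the VC range. The log2 fold change of -0.46 (SE 0.15) did not pass, with a limma adjusted p of 0.0744; DESeq2 gave an adjusted p of 0.0355 and edgeR one of 0.0805. With scaling to the total of all reads its log2 fold change was 0.41, and over the alternatives its adjusted p ran from 0.0355 to 0.356.

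Hey1, another bHLH repressor, stood at 133, 90.1, 175 and 75.0 normalized counts in VC and at 60.2, 73.9, 52.8 and 47.9 in AP. The groups did not overlap, though VC.4 and AP.2 nearly met, and the VC values came from only 40 to 128 reads. The log2 fold change was -0.94 (SE 0.31, limma adjusted p = 0.0683). Without VC.4 it was -1.13 and passed, with a limma adjusted p of 0.0471. DESeq2 gave an adjusted p of 0.0140 and edgeR one of 0.0506, the range over the alternatives being 0.0140 to 0.860. With scaling to the total of all reads its log2 fold change was -0.08.

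Heyl, the third Hey-family gene, stood at 118, 158, 178 and 189 normalized counts in VC and at 89.2, 147, 123 and 85.1 in AP. VC.1 lay below AP.2 and AP.3, so the groups overlapped. The log2 fold change of -0.55 (SE 0.25, 95% interval -1.09 to -0.01) did not pass, with a limma adjusted p of 0.161, and it was 0.32 with scaling to the total of all reads. None of 19 alternative fits called Heyl, with adjusted p from 0.0752 to 0.394.

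The summed level of Hes1, Hey1 and Heyl was 688, 624, 779.7 and 651 normalized counts in VC and 422, 505, 452 and 487 in AP. All AP sums were below all VC sums, while all receptor sums were above; with scaling to the total of all reads the target sums overlapped, with a mean 1.22 times as high in AP. That scaling counts the mitochondrial reads, called 7 of the 10 genes higher (the receptors, the ligands and Rbpj), beside 54.2% of all genes, and 0 lower, beside 0.438%, and moved the all-gene median of the log2 fold change from 0.06 to 0.90. Relative to that median, Hes1 was at -0.52 with the deposited scaling and at -0.49 with the total of all reads, Hey1 at -0.997 and -0.981, and Heyl at -0.60 and -0.58. The log2 ratio of Hes1 over Rbpj differed by -0.61 (two-sided exact permutation p = 0.0857, adjusted 0.214). That of Heyl over Hey1 differed by 0.39 (exact permutation p = 0.314, adjusted 0.429), from 0.17 without VC.1 to 0.67 without VC.4.

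Genes of the dermal papilla, the mesenchyme at the base of the follicle, lay in the direction of Hes1, Hey1 and Heyl. None of these targets was called by limma, which called Nrarp and Dtx1, also listed as targets, higher. All 5 melanocyte genes and all 10 skeletal muscle genes had log2 fold changes below 0 as well. Limma called 3 of 10 dermal papilla genes lower (Sox2, Rspo3 and Crabp1), beside 4.0% of all genes. All 10 had log2 fold changes below 0, and none had a library at 0. Their summed level was 1861, 1996, 2496 and 3422 normalized counts in VC and 982, 1002, 1202 and 908 in AP, with Crabp1 the most abundant over all libraries and Sox18 in AP. All AP sums were below all VC sums (0.419 times in the mean; two-sided exact permutation p = 0.0286, adjusted 0.0857), although they overlapped with scaling to the total of all reads (0.763 times). The part of the dermal papilla in the Hes1, Hey1 and Heyl differences was not tested.

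Divided by transcript length, Hes1 had the highest level in VC, with a mean of 277 ± 20.5 (SD, n = 4) normalized counts per kilobase. Jag2 (144 ± 63.8), Notch1 (72.1 ± 24.8) and Jag1 (70.6 ± 28.2) followed, then Rbpj (54.7 ± 13.8), Hey1 (48.8 ± 18.6), Dll1 (40.1 ± 15.4), Heyl (35.4 ± 6.87), Notch3 (27.996 ± 8.58) and Notch2 (21.5 ± 2.51). Only Hes1 was clear of its neighbour; each other pair of neighbours in this order overlapped between libraries.

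In AP the order per kilobase was Jag2 (216 ± 42.8), Hes1 (202 ± 26.2), Notch1 (127 ± 29.2) and Notch3 (109.6 ± 44.6), then Jag1 (90.2 ± 28.8), Rbpj (59.7 ± 8.71), Dll1 (54.8 ± 10.3), Notch2 (45.9 ± 9.72), Heyl (24.4 ± 6.43) and Hey1 (24.2 ± 4.66). Hes1 was clear of Notch1 and Notch2 of Heyl; the other neighbours overlapped. Notch3 moved from rank 9 in VC to rank 4 in AP and Hey1 from rank 6 to rank 10, where the ranks within an overlapping run are not separated.

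The libraries also differed within groups. VC.4 had the lowest VC value for 6 of the 10 genes (Notch1, Notch2, Notch3, Jag1, Jag2 and Hey1), and VC.3 the highest for 6. AP.2 had the highest AP value for 7 genes, and AP.1 the lowest for 6. In VC the ligand Dll1 was lowest in VC.1, and in AP the receptor Notch2 was lowest in AP.4.

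The members differed in length, and over all genes the fold change followed length. The median log2 fold change was -0.22 over 4032 genes with a longest transcript under 2000 nt, -0.01 over 6390 genes of 2000 to 4000 nt, and 0.20 over 3475 genes of 4000 to 6000 nt. It was 0.38 over 1233 genes of 6000 to 8000 nt and 0.50 over 834 genes of 8000 nt or more. The receptors are the longest of the 10 (8016 nt for Notch3, 9488 for Notch1 and 10500 for Notch2), and Hes1 (1468 nt) and Hey1 (2423 nt) the shortest. With a trend on length removed from each library, the log2 fold change was 1.502 for Notch3 (limma adjusted p = 0.0130), 0.38 for Notch1 (0.353), -0.23 for Hes1 (0.356), -0.85 for Hey1 (0.116) and -0.73 for Heyl (0.0752). Notch3 was then the only one of the 10 called, 1 higher beside 3.63% of all genes and 0 lower beside 3.36%.

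**Figure D2:**
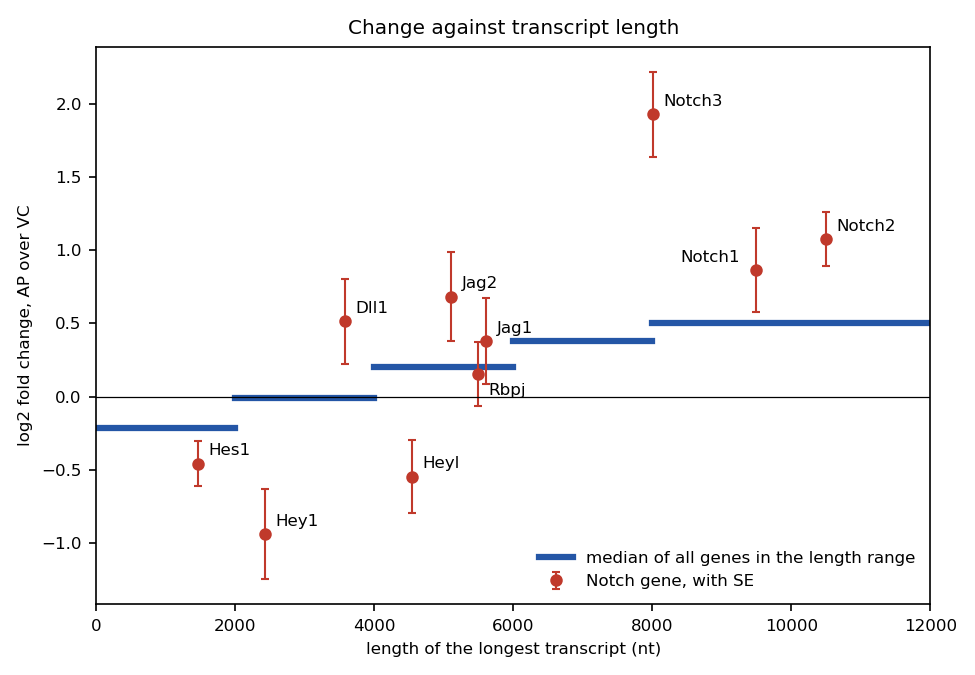
Log2 fold change (AP over VC) of the 10 Notch genes with its SE (red) against the length of the longest transcript in nt; blue lines give the median over all tested genes of each length range, the last one holding all genes of 8000 nt or more. The medians run from -0.22 to 0.50; Notch3 is at 1.93, and Hes1 (-0.46) and Heyl (-0.55) turn to 0.41 and 0.32 with scaling to total counts.

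Of 63 other genes of the pathway, 62 were in the table and 59 were tested. Limma called 11 of them higher and 1 lower, beside 6.33% and 4.0% of all genes, and 47 were not called; the median log2 fold change was 0.30. Without AP.3 limma called 0 of the 59 higher and 0 lower, beside 1.31% and 0.589% of all genes, and the median of the 59 was 0.26. Without AP.2 it was 1 higher (2.49% of all genes) and without AP.4 also 1 (1.59%), and without AP.1 11 (6.78%). With the length trend removed 2 were higher, beside 3.63% of all genes, and 2 lower, beside 3.36%; of the 12 genes called with the deposited scaling, Adam17 and Nrarp were called there. DESeq2 called 15 of the 59 higher, beside 10.5% of all genes, and 4 lower, beside 8.53%, and edgeR 9, beside 6.28%, and 1, beside 4.46%. With scaling to the total of all reads 47 were higher, beside 54.2% of all genes, and 0 lower, beside 0.438%. Dll3 was not analysed here, and Dner, Hes5 and Hes7 were too low to be tested, with at most 5, 8 and 28 reads in a library.

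The receptor Notch4 and the ligand Dll4, both of endothelium, were called higher. Notch4 stood at 58.2, 53.2, 39.6 and 43.1 normalized counts in VC and at 127, 238, 97.2 and 81.5 in AP. All AP values were above the VC values, with AP.2 on top. Notch4 had a log2 fold change of 1.36 (SE 0.34, limma adjusted p = 0.0315) and was called in 13 of 19 alternative fits, not without VC.3, VC.4, AP.2 or AP.3, nor with limma-voom (adjusted p = 0.0755) or the length trend removed (0.996, limma adjusted p = 0.0913). Dll4 stood at 20.01, 13.3, 24.6 and 31.9 in VC and at 71.1, 84.7, 36.9 and 60.1 in AP. Again the groups did not overlap, although AP.3 came near VC.4 (log2 fold change 1.46, SE 0.39, limma adjusted p = 0.0386; called in 9 of 19 alternative fits, among the left-out libraries only without VC.4).

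Limma called 2 of 10 endothelial genes higher (Pecam1 and Cdh5), beside 6.33% of all genes, and DESeq2 6, beside 10.5%. Of the 10, 9 had log2 fold changes above 0, and none had a library at 0. Their summed level was 1666, 1819, 2870.2 and 2919 normalized counts in VC and 4268, 9073, 3425 and 3980.3 in AP, with Vwf the most abundant over all libraries and Pecam1 in AP. The AP sums were above the VC sums (2.24 times in the mean; two-sided exact permutation p = 0.0286, adjusted 0.0857). Without AP.2, the highest library, the endothelial sum was 1.68 times that in VC, still with no overlap. The part of endothelium in the Notch4 and Dll4 differences was not tested.

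Among the 9 proteases that cut the receptors, 1 was called higher, beside 6.33% of all genes. It was the sheddase Adam17, with a log2 fold change of 0.69 (SE 0.14, limma adjusted p = 0.0174). Its values were 280.1, 297, 304 and 294 normalized counts in VC and 429, 454, 508 and 519 in AP. They hardly varied within the VC group, and the groups were well apart. Adam17 was called in 17 of 19 alternative fits, all but those without AP.3 or AP.4, more than any other of the called pathway genes outside the 10. Of the 4 ubiquitin ligases that act on ligands, 1 was called higher, beside 6.33% of all genes, and 0 lower, beside 4.0%. It was Neurl1b, with a log2 fold change of 0.78 (SE 0.23, limma adjusted p = 0.0496). Neurl1b was called in 6 of 19 alternative fits, not with edgeR or limma-voom, and among the left-out libraries only without VC.2. With the deposited scaling, limma called none of the 5 glycosyltransferases that modify the receptors at an adjusted p under 0.05. For 1 of them, Pofut1, the unadjusted p was under 0.05. The alternatives edgeR, DESeq2 and limma-voom also called 0. Lfng, with the most normalized counts of the 5 over all libraries, had a log2 fold change of 0.44 (SE 0.22, limma adjusted p = 0.197). With scaling to the total of all reads it was 1.31, and Lfng was called higher (limma adjusted p = 0.00281), beside 54.2% of all genes. Rfng, with the most counts in VC and named after its values were seen, had a log2 fold change of -0.44 (SE 0.22, limma adjusted p = 0.198). It turned to 0.43 with that scaling.

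Of 7 coactivators that join the receptor's intracellular part, 3 were called higher, beside 6.33% of all genes, and 0 lower, beside 4.0%. Maml1 had a log2 fold change of 1.11 (SE 0.32, limma adjusted p = 0.0480) and Maml3 one of 1.23 (SE 0.32, adjusted p = 0.0364). The acetyltransferase Ep300 stood at 300.1, 236, 231 and 163 normalized counts in VC and at 357, 632, 532 and 436 in AP, with no overlap (log2 fold change 1.07, SE 0.23, limma adjusted p = 0.0198). Of 12 corepressors, which hold targets silent with Rbpj, 2 were called higher, beside the same shares, and 0 lower. They were Spen (1.33, SE 0.30, limma adjusted p = 0.0229) and Ncor1 (0.54, SE 0.15, limma adjusted p = 0.0419). Of 19 alternative fits, Maml1 was called in 8, Maml3 in 12, Ep300 in 15, Spen in 15 and Ncor1 in 9. None of these 5 was called without AP.2, AP.3 or AP.4. With the length trend removed none was called either (limma adjusted p 0.0822 for Spen to 0.782 for Ncor1), and the log2 fold changes were 0.82 for Maml1, 0.79 for Maml3, 0.59 for Ep300, 0.77 for Spen and 0.07 for Ncor1.

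Nrarp, a feedback inhibitor that is itself a target, was called higher. It stood at 284, 483, 355 and 234 normalized counts in VC and at 502, 503, 788 and 981 in AP. AP.3 and AP.4 were highest, unlike for the receptors, and VC.2 came close to AP.1 and AP.2. Nrarp had a log2 fold change of 1.02 (SE 0.27, limma adjusted p = 0.0372) and was called in 13 of 19 alternative fits, among the left-out libraries only without VC.2 or AP.1, and among them the one with the length trend removed (limma adjusted p = 0.0401). Dtx1, a ubiquitin ligase and also a target, stood at 10.9, 25.1, 31.4 and 13.1 in VC and at 47.9, 70.6, 58.3 and 43.6 in AP. Its groups did not overlap (log2 fold change 1.51, SE 0.41, limma adjusted p = 0.0406; called in 10 of 19, among the left-out libraries only without VC.2 or VC.3), but the VC values rest on 6 to 23 reads.

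Of 11 genes listed as other targets, 9 were tested, 2 were called higher (Nrarp and Dtx1, which also stand among the 11 genes of turnover and inhibition), beside 6.33% of all genes, and 1 lower, beside 4.0%. The lower one was Hes6, which was listed as a member of the Hes family. Whether Notch controls Hes6 in this skin was not tested. Hes6 stood at 182, 157, 164 and 249 normalized counts in VC and at 125, 92.7, 69.3 and 126 in AP. Its groups did not overlap (log2 fold change -0.88, SE 0.25, limma adjusted p = 0.0492), and 7 of 19 alternative fits called it, among the left-out libraries only that without AP.1; with scaling to the total of all reads it was at -0.01.

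**Figure D3:**
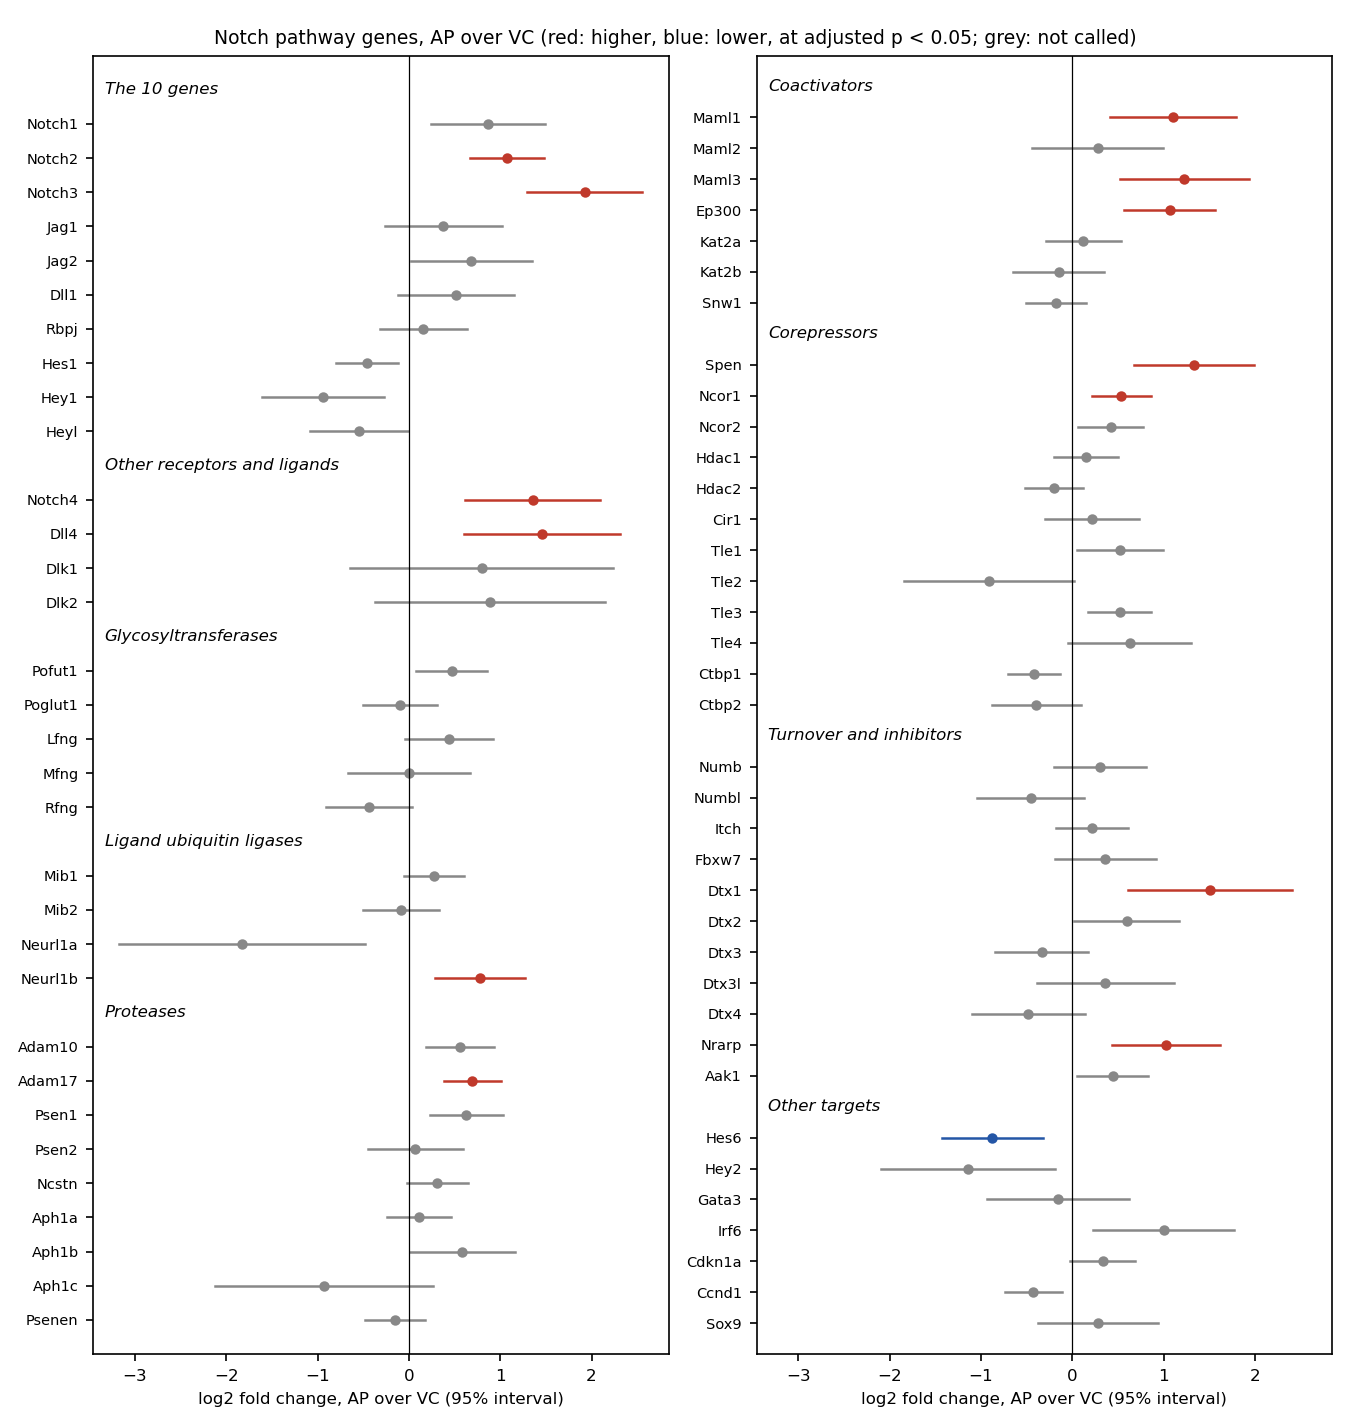
Log2 fold change (AP over VC) with its 95% interval for the 10 Notch genes and 59 other tested pathway genes, grouped by role; red marks genes called higher and blue genes called lower at a limma adjusted p under 0.05, grey the rest. Of the 59, 11 are red and 1 (Hes6) is blue; with scaling to the total of all reads 47 were called higher and 0 lower, and Hes1 and Heyl turned to 0.41 and 0.32.

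None of the 12 marker sums had an adjusted p under 0.05, which the exact permutation test with 4 against 4 allows only where at least 7 lists reach its lowest p. The sums of the other 8 lists (adjusted p 0.206 to 0.800) overlapped between the groups. With scaling to the total of all reads those of basal keratinocytes (3.40 times) and red blood cells (2.64 times) did not (exact permutation p = 0.0286 each, before adjustment). In the mean, the basal keratinocyte sum in AP was 1.99 times that in VC (two-sided exact permutation p = 0.114), and without VC.2, at 2.72 times, the groups no longer overlapped. Limma called 5 of its 9 genes higher (Itga6, Itgb4, Col17a1, Lama3 and Dst), beside 6.33% of all genes. All 9 had log2 fold changes above 0, and the mean of their log2 values gave an exact permutation p of 0.0286 (adjusted 0.0857). The melanocyte sum was 0.459 times (exact permutation p = 0.0857), or 0.385 times and with no overlap without VC.4. Limma called 3 of its 5 genes lower (Pmel, Tyr and Mlana), beside 4.0% of all genes. The skeletal muscle sum was 0.511 times (exact permutation p = 0.229), a value that rests on AP.1: without that library it was 0.179 times, with no overlap (exact permutation p = 0.0286, adjusted 0.0686).

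The hair matrix and inner root sheath sum was 2.19 times that in VC (two-sided exact permutation p = 0.257). Limma called 1 of its 10 genes higher (Tchh), beside 6.33% of all genes, and 4 had log2 fold changes below 0. The red blood cell sum was 1.48 times (exact permutation p = 0.200). Of its 5 genes limma called 1 higher (Hbb-bs), beside the same share, and 1 had a log2 fold change below 0. DESeq2 called Hba-a2 lower. The fibroblast sum was 1.34 times (exact permutation p = 0.400). The leukocyte sum was 0.614 times (exact permutation p = 0.257) and turned to 1.18 times with scaling to the total of all reads. The adipocyte sum was 1.09 times (exact permutation p = 0.800), and below 1 without VC.2 (0.935), VC.3 (0.947) or AP.2 (0.893). Their part in the Notch gene differences was not tested.

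The genes with the pattern most like Notch3 over the 8 libraries, by the root mean square difference of centred log2 values among 11256 genes, were Gm15587 (0.162), Slco2a1 (0.227) and Atp7a (0.227). For Jag2 they were Map7 (0.128), Plxnb1 (0.131) and Wdr20 (0.158). For Hey1 they were Serpine2 (0.163), Thap3 (0.188) and Bmp4 (0.208). Gm15587, annotated as an antisense gene, lies on chromosome 5, so it does not share a locus with Notch3 on chromosome 17. Counting by strand is not given, so reads of Gm15587 cannot be told apart from those of a gene on the opposite strand.

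Coordinates of the receptor genes in mm10, by the GENCODE M21 annotation, are chr2:26457903-26516663 for Notch1 (minus strand, ENSMUSG00000026923), chr3:98013527-98150361 for Notch2 (plus strand, ENSMUSG00000027878) and chr17:32120820-32166852 for Notch3 (minus strand, ENSMUSG00000038146). Of the target genes, Hes1 (ENSMUSG00000022528) lies at chr16:30064384-30067796, Hey1 (ENSMUSG00000040289) at chr3:8663359-8667256 and Heyl (ENSMUSG00000032744) at chr4:123233556-123249875. The ligands are Jag1 (ENSMUSG00000027276, chr2:137081456-137116644), Jag2 (ENSMUSG00000002799, chr12:112907819-112929776) and Dll1 (ENSMUSG00000014773, chr17:15367354-15376872), and Rbpj (ENSMUSG00000039191) lies at chr5:53466152-53657362.

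The promoters of the called receptors are shown because both genes were higher in the same libraries. RefSeq promoter sequences (build GRCm38.p6, the same assembly as mm10) matched 7 of the 10 genes; Hes1, Hey1 and Heyl had no entry. The 250 bases before each RefSeq start were searched on both strands for the GC box GGGCGG and for the core TGGGAA that Rbpj binds. Notch2 (chr3:98013288-98013537, plus strand) and Notch3 (chr17:32166891-32167140, minus strand) read as follows, 5′ to 3′ along the gene, with GC boxes of either strand in capitals. RefSeq starts need not be the ends of the GENCODE genes: the Notch3 window lay outside the gene given above and the Notch2 window all but 11 bases, while those of Notch1, Jag2 and Rbpj, 1 of 2 of Dll1 and 124 bases of that of Jag1 lay within.
Notch2: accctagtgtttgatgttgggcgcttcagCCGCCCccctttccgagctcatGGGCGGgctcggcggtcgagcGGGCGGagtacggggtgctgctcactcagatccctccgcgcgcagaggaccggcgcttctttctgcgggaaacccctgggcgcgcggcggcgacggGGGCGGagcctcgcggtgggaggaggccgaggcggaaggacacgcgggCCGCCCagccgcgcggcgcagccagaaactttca
Notch3: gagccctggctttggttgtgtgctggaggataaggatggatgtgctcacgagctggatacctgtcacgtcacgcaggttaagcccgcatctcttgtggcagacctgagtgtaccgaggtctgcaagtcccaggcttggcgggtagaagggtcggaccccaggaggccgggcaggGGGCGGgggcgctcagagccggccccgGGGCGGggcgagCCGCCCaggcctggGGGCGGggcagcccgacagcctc
Notch2 held 5 GC boxes, Notch3 4 and Notch1 5, and none of the 3 held TGGGAA in this window. Over 32817 promoter windows of the same length, 32.7% held at least 1 GC box, 8.47% at least 3, and 21.6% the core TGGGAA. Among the ligands Jag2 held 5 GC boxes, and Jag1 and Dll1 held 0. Rbpj held 0 GC boxes in its 2 windows and was the only matched gene with TGGGAA, at 2 sites, 1 of which lies in the overlap of the windows. The letters describe these windows and were not tested against expression.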

How the data were processed

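Messenger RNA was sequenced from 8 libraries, 4 VC and 4 AP. Reads were aligned to mm10 with STAR. For counting, the methods name featureCounts and the submitters' processing notes name HTSeq, so the counting tool is not settled. The signal used here is the normalized counts deposited by the authors, scaled with DESeq2. The authors' own test columns (mean, log2 fold change and its error, Wald statistic, p and adjusted p) were not used. All 150160 values (100%) fell within 0.01 of a whole multiple of the library's step, so whole reads were recovered.

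The main test was limma 3.58.1 (R 4.3.3) with an intensity trend on log2(value + 1) and Benjamini-Hochberg adjustment. It covered 15964 genes, those that reached 3 normalized counts in 4 or more libraries; all 10 Notch genes passed. Alternatives were edgeR 4.0.16 with TMM factors, DESeq2 1.42.0 and limma-voom on recovered reads, pseudocounts of 0.5 and 5, other filters, scalings and thresholds, a loess trend on transcript length removed (span 0.3, fitted on genes with a mean of at least 50) and each library left out. Ratios and marker sums were compared by two-sided exact permutation over 70 assignments. Marker p-values were adjusted over 12 lists; 1 further list was not used here. The fits were tested on simulated data, where they missed some of the smaller (2-fold) changes; the criterion for passing, which had included these, was then lowered to larger ones. Python 3.11.15 with numpy 2.4.6, pandas 2.3.3 and matplotlib 3.10.9 did the rest.

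Total reads ran from 6454563 to 11190113. Chi-square per degree of freedom between replicates was 14.7 to 74.2; no pair was as close as copies of 1 library would be. The floor of 3 reads covers counting error only. The members, lists and tests were chosen with earlier results of these data known. Genes named are the 10, every pathway gene with an adjusted p under 0.05 (at most 12), the most abundant gene of a pathway list without one, and the 3 closest profiles, among tested genes with a mean of at least 50, to the receptor, ligand and target with the lowest p. Marker genes, genes overlapping the 10, Rfng and Pofut1 were named after their values were seen. Pathway genes that were not tested were named too.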

Additional observations from a re-analysis of the deposited data

Results flagged for a closer look

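In 6 of 54 groups of 4 libraries (10 genes, 5 ratios and 12 marker sums, each in VC and AP) 1 library stood far from the other 3; chance does so in about 1 group in 20. Hes1 in AP.4 was at 354 normalized counts, with the other AP libraries at 273 to 284. The log2 ratio of Notch1 over Notch2 was 0.84 in VC.4 and 1.70 to 1.80 in the other VC libraries, and that of Notch1 over Notch3 was 0.092 in AP.2 and 0.61 to 0.71 in the other AP libraries. The summed endothelial level was 9073 normalized counts in AP.2, against 3425 to 4268 in the others. In AP.1 the skeletal muscle sum was 85544, against 6445 to 13295, and the leukocyte sum 13626, against 8403 to 9049.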

How the results depend on the processing

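Notch3 kept its call in all 19 alternative fits and Notch2 in 18. With DESeq2 1677 genes were higher and 1362 lower, and 2 of the 10 Notch genes lower (Hes1 and Hey1). With scaling to the total of all reads, 8656 genes were higher and 70 lower, and 7 Notch genes higher; Hes1 was at 0.41 and Heyl at 0.32, and the summed log2 level of leukocytes (0.30) turned too. That scaling counts mitochondrial reads, which differ between the groups. With the length trend removed 580 genes were higher, 1 Notch gene was higher and Rbpj was at -0.12; the cause was not tested. DESeq2 with the methods' thresholds, chosen after seeing the data, gave 1570 higher and 1173 lower genes, and 1 lower Notch gene. The paper reported fewer genes in both directions, so this run did not reproduce its list. A threshold of 0.1 on the adjusted p gave 1917 higher and 1381 lower genes, and 2 lower Notch genes. With 1 library left out (fewer samples), 209 to 1082 genes were higher and 94 to 817 lower, 2 to 3 Notch genes higher and 0 to 1 lower, and the log2 fold change of Rbpj was -0.050 (without VC.2) to 0.25. The share of higher genes among those called was 61.3%, and in other fits from 49.7% (limma-voom) to 99.2% (total of all reads), with 51.9% for the length trend removed, 52.1% for upper-quartile scaling, 69.0% without AP.3, 69.1% without VC.1 and 72.0% without AP.2; the cause was not tested. Over the left-out libraries alone, the summed log2 level of adipocytes (0.23) ran from -0.023 (without VC.2) to 0.59 (without VC.1). It was -0.0051 without AP.2, and lay above that range with scaling to the total of all reads. Scalings and left-out libraries for marker sums, scalings for role sums, and all alternatives for the 59 other pathway genes, were chosen after seeing the data. Of those 59, limma-voom called 5 higher (4.48% of all genes), no filter 7 (5.26%) and leaving out 1 library 0 to 11 (1.31% to 6.78%). Depth limits the low genes, such as Hey1 with 40 reads in VC.4.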
